A study of Macaca mulatta with 102 samples.

Results

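CD24 is a small, heavily glycosylated protein that is held in the outer leaflet of the cell membrane by a glycosylphosphatidylinositol anchor. In the mammary gland it is best known as a surface antigen of luminal epithelial cells, the cells that face the duct and secrete milk, and antibodies to it are used to sort those cells. B cells, neutrophils and other white blood cells can carry it as well, and the protein has been found on the membrane that wraps the milk fat globule. CD24 was followed here through 1 of the 42701 Ensembl transcripts in the deposited values, ENSMMUT00000022072, on chromosome 4 of the rheMac2 build of the rhesus macaque genome (103000320 to 103003296, a span of 2977 bases). It was chosen as a gene of known function among the most abundant transcripts, so its high rank is a description.

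The study asked how RNA from milk compares with RNA from the lactating mammary gland, and sampled 6 prime-aged multiparous macaque mothers (*Macaca mulatta*) of an outdoor breeding colony, called M1 to M6 here, all nursing male infants. All were milked under ketamine after oxytocin, and biopsies followed milking, under dexmedetomidine and lidocaine. In M3, M4 and M6 the day 90 milk therefore came after the biopsy. An animal that is not identified developed mastitis, which was resolved by antibiotics given after its biopsy. Each animal gave 1 vacuum-assisted core biopsy, on day 30 after birth in M3, M4 and M6 and on day 90 in M1, M2 and M5. Milk cells, the washed pellet of centrifuged milk, were taken from all 6 animals on both days. Milk fat, the floating layer, came from 4 animals on day 30 (M1, M2, M3 and M6) and from 6 on day 90. The study judged the day 30 milk RNA of as many animals as are missing to be too poor for sequencing. It also reported lower RNA integrity in macaque milk fat than in milk cells or mammary tissue. Sample type and RNA integrity therefore cannot be told apart for milk fat, and integrity was not tested here. A further 6 milk samples of day 90 carry the label FatS10 in M1, M2, M5 and M6, FatsS10 in M4 and Skim10m in M3. The study counts as many cell-free milk samples, but the labels do not call them that. The first 5 are called FatS10 below and the Skim10m sample is given on its own. Every sample holds a mixture of cells or cell fragments, so fewer CD24-bearing cells and less CD24 RNA per cell cannot be told apart.

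Levels are FPKM (fragments scaled to transcript length and to the mapped fragments of the library) as deposited, averaged over 3 technical runs of each of the 34 samples. The CV of CD24 over the runs of a sample was at most 3.87%. Across all transcripts, the nearest run by Spearman correlation was one of the same sample for all but 2 runs, and those belonged to M6 (milk fat, day 30). The values do not state the number of reads of each sample, for which the study gives an average. Relative depth was read from the steps between low values, and it lay between 0.740 and 1.63 times that of the median sample.

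Only 1 other transcript of the file overlaps it, ENSMMUT00000040240 (chromosome 4, 102991083 to 103009653), which spans CD24 completely and is listed at 0 in every run. Cufflinks divides reads between overlapping transcripts, so reads of the longer one may be counted with CD24. The other 5 transcripts within 100000 bases on either side had mean levels of at most 5.47 FPKM, against 5472 FPKM for CD24 over all samples. Strand was not used here, so signal from the overlapping transcript cannot be told apart from that of CD24.

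CD24 was among the 25 highest transcripts in every sample. In mammary biopsies it measured 4272 ± 1421 FPKM (SD, n = 6), and in milk cells 6144 ± 1296 FPKM (SD, n = 12). The level in milk fat was 5043 ± 1487 FPKM (SD, n = 10), and that in FatS10 was 5944 ± 1091 FPKM (SD, n = 5). The Skim10m sample of M3 had 6530 FPKM. By these means the order was milk cells, FatS10, milk fat and biopsy, and no neighbours in that order were called by limma, as deposited or scaled. Within animals as deposited, milk fat was above the biopsy in 6 of 6 (exact sign-flip permutation p = 0.03125) and FatS10 was above milk fat in 5 of 5 (exact p = 0.0625), while the scaled values gave 3 of 6 and 4 of 5.

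Per sample, the biopsies of day 30 had 4858 FPKM in M3, 4428 in M4 and 4738 in M6, and those of day 90 had 3354 in M1, 2051 in M2 and 6204 in M5. The 3 biopsies of day 30 therefore lay within the range of the 3 biopsies of day 90. In milk cells, CD24 ranged from 3837 (M2) to 8702 FPKM (M3) on day 30 with a median of 6745, and from 4468 (M2) to 6705 FPKM (M3) on day 90 with a median of 5862. The milk fat samples of day 30 held 5350 FPKM in M1, 2803 in M2, 5853 in M3 and 5212 in M6. On day 90 milk fat ranged from 2810 (M2) to 7280 FPKM (M3) with a median of 4841. FatS10 samples had 6871 FPKM in M1, 4377 in M2, 5899 in M4, 7064 in M5 and 5509 in M6. The ranges of all 4 sample types overlapped, and M2 was the lowest animal in each.

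**Figure D1:**
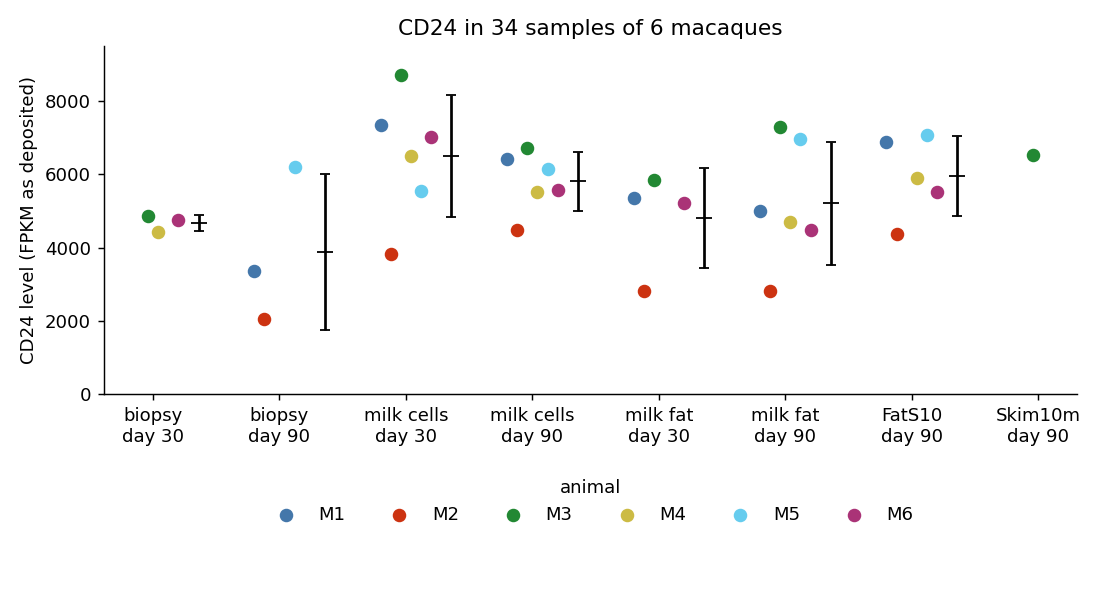
CD24 level in FPKM as deposited (vertical axis, linear from 0) for each of 34 samples, grouped by sample type and day and coloured by animal; each point is the mean of 3 technical runs, and the black bar is the mean ± SD of the group. The ranges of the sample types overlap, between 2051 and 8702 FPKM, and M2 is the lowest point of every group it belongs to.

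The rank of CD24 among all transcripts of a sample was 9 at the median in biopsies (9 to 16), 9 in milk cells (8 to 16), 9 in FatS10 (9 to 14) and 15 in milk fat (11 to 25). The transcripts above CD24 in milk fat included some that were below it in biopsies. Between 2 and 4 of the 4 transcripts matched to PLIN2, which encodes the coat protein of lipid droplets, were above it in milk fat samples and 0 were above it in biopsies. Transcripts with a locus span under 200 bases accounted for up to 9 of those above CD24 in milk fat and for up to 2 in biopsies. With both kinds set aside, a choice made after the ranks were seen, CD24 ranked 8 at the median in milk fat (8 to 15), 9 in biopsies (9 to 14), and 8 in milk cells (8 to 10) and in FatS10 (8 to 9).

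As a share of the summed FPKM, CD24 made up 0.429% ± 0.151 (SD, n = 6) in biopsies, 0.579% ± 0.0961 (SD, n = 12) in milk cells, 0.433% ± 0.128 (SD, n = 10) in milk fat and 0.546% ± 0.101 (SD, n = 5) in FatS10. The lowest share of any sample was 0.196%, in the biopsy of M2, and the highest was 0.755%, in the day 30 milk cells of M3.

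Differences between sample types were tested on log2(scaled FPKM + 1), where each sample was divided by a median-of-ratios factor and the days of an animal were averaged. A transcript was called by limma at a Benjamini-Hochberg adjusted p under 0.05 over all transcripts tested. For CD24 an exact two-sided sign-flip permutation test over the animals' own differences was added. The comparisons share samples, so they are not independent of each other.

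CD24 was not called between mammary biopsies and milk cells, where 43% of the 14172 transcripts tested were called. Its log2 level was 12.09 in biopsies and 12.39 in milk cells, a difference of 0.30 (standard error 0.30, 95% interval -0.35 to 0.95, limma adjusted p = 0.446). CD24 was higher in milk cells in 5 of 6 animals, by 0.13 in M2 and by 0.45 to 0.55 in M1, M3, M4 and M6, and it was lower by -0.40 in M5 (exact sign-flip permutation p = 0.09375, 0.281 adjusted over the 9 comparisons of CD24). M5 is the only animal whose biopsy was in another sequencing pool (3) than its milk (4), and the part of the pool was not tested. Without M5 the difference was 0.43 and 5 of 5 animals were higher (limma adjusted p = 0.336). The smallest p that 6 animals allow is 0.03125. In FPKM as deposited the difference was 0.57 (limma adjusted p = 0.0779) and the median transcript differed by 0.24, against 0.02 after scaling.

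Between biopsies and milk fat, 55% of the 13413 transcripts tested were called and CD24 was not. The difference was 0.08 (standard error 0.31, 95% interval -0.58 to 0.75, limma adjusted p = 0.830), and 3 of 6 animals had more CD24 in milk fat (exact permutation p = 0.5). The direction of the difference changed with the scaling. In FPKM as deposited, 6 of 6 animals had more CD24 in milk fat, by 0.30, and with 75th percentile scaling 6 of 6 did, by 0.36. When samples were scaled to the sum outside the 20 highest transcripts, 6 of 6 had less, by -0.36. The exact permutation p was 0.03125 for each, and the limma adjusted p was 0.388, 0.339 and 0.346. The median of all transcripts moved along, to 0.23, 0.28 and -0.27. Relative to that median, CD24 differed by 0.02 in the main scaled values, 0.07 as deposited, 0.08 with the 75th percentile and -0.09 with the sum outside the 20 highest.

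From milk cells to milk fat, the CD24 difference was -0.21 (standard error 0.32, 95% interval -0.90 to 0.48, limma adjusted p = 0.611), where 43.7% of 13521 transcripts were called. CD24 was lower in milk fat in M1, M2, M3 and M6, by -0.37 to -0.45, nearly level in M4 (-0.03) and higher in M5 (0.36). The exact permutation p was 0.09375. M4 and M5 have milk fat of day 90 only. With day 90 milk alone the difference was -0.12, and 2 of 6 animals were higher in milk fat (limma adjusted p = 0.768, exact permutation p = 0.25). Without M5 it was -0.33 and 0 of 5 were higher (exact p = 0.0625). In M5, CD24 in milk cells lay below both the biopsy and the milk fat of the same animal, which no other animal showed.

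FatS10 of 5 animals was set against the 3 other types of 6 animals, since M3 has no FatS10 sample. Against biopsies, CD24 was higher in FatS10 in 5 of 5 animals, by 0.06 in M5, whose biopsy was in another pool, to 0.48 in M2, which gave the smallest p that 5 animals allow (exact permutation p = 0.0625, 0.281 adjusted over the 9 comparisons). The limma difference was 0.21 (standard error 0.26, 95% interval -0.36 to 0.79, adjusted p = 0.530), and 43.4% of 13781 transcripts were called. In FPKM as deposited the difference was 0.54 (adjusted p = 0.110). With the Skim10m sample of M3 added to FatS10 it was 0.28, and 6 of 6 animals were above the biopsy (exact permutation p = 0.03125, limma adjusted p = 0.373). With animal as a block the difference was 0.33 and the limma adjusted p was 0.0545, the lowest over every alternative of the 9 comparisons. The biopsies of M3, M4 and M6 were of day 30, while all FatS10 and Skim10m samples were of day 90. Sample type and day cannot be told apart for these animals, whose day 90 milk also followed the biopsy.

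Against milk fat of day 90, the difference of FatS10 was 0.07 (standard error 0.28, 95% interval -0.54 to 0.69, limma adjusted p = 0.874), with 4 of 5 animals higher in FatS10 and 24.4% of 12759 transcripts called. Without M3, whose milk fat was the highest of that day, it was 0.22 (adjusted p = 0.568), without M2 it was 0.01 (0.979) and without M1 -0.01 (0.987). Against milk cells of day 90 it was -0.05 (standard error 0.26, 95% interval -0.62 to 0.53, limma adjusted p = 0.946), with 0.713% of 13456 transcripts called. The sign of the last value turned without M3 (0.10), the highest animal, which is in the milk cell group and has no FatS10 sample. It also turned with M3 kept, to 0.026 as deposited and to 0.010 with 75th percentile scaling. Within the 5 animals that have both, CD24 was higher in FatS10 in 4, and the mean difference was 0.10 (exact permutation p = 0.25).

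The 2 days of lactation were compared within each type. In milk cells CD24 differed by -0.07 from day 30 to day 90 (standard error 0.33, 95% interval -0.78 to 0.64, limma adjusted p = 0.911), where 5.15% of 13815 transcripts were called. It was lower on day 90 in M1, M3, M4 and M6 and higher in M2 and M5. In milk fat the group difference was 0.30 (standard error 0.38, 95% interval -0.54 to 1.14, adjusted p = 0.973), and 3 of the 4 animals with both days were higher on day 90, by 0.11 to 0.40, while M6 was at -0.18. The group difference set 4 animals against 6. Within the 4 animals the mean was 0.18 (limma adjusted p = 0.693 with animal as a block), without M2 the group difference was 0.13 (adjusted p = 0.997), and as deposited it was 0.10 with 2 of 4 animals higher (adjusted p = 0.945). In the biopsies, which came from different animals on the 2 days, the difference was -0.15 (standard error 0.41, 95% interval -1.15 to 0.84, adjusted p = 0.965).

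By limma, 0% of the 12609 transcripts tested in milk fat and 0% of the 13762 in biopsies were called between days. At an unadjusted p under 0.05 there were 661 of the 12609 and 440 of the 13762 transcripts. A share of 0.05 would pass that threshold if no transcript differed, so these counts are not read as day effects. The day difference in milk fat exceeded that in milk cells in each of the 4 animals that have all 4 samples, by 0.30 ± 0.20 (SD, n = 4). The exact sign-flip permutation p for this was 0.125, the smallest that 4 animals allow.

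**Figure D2:**
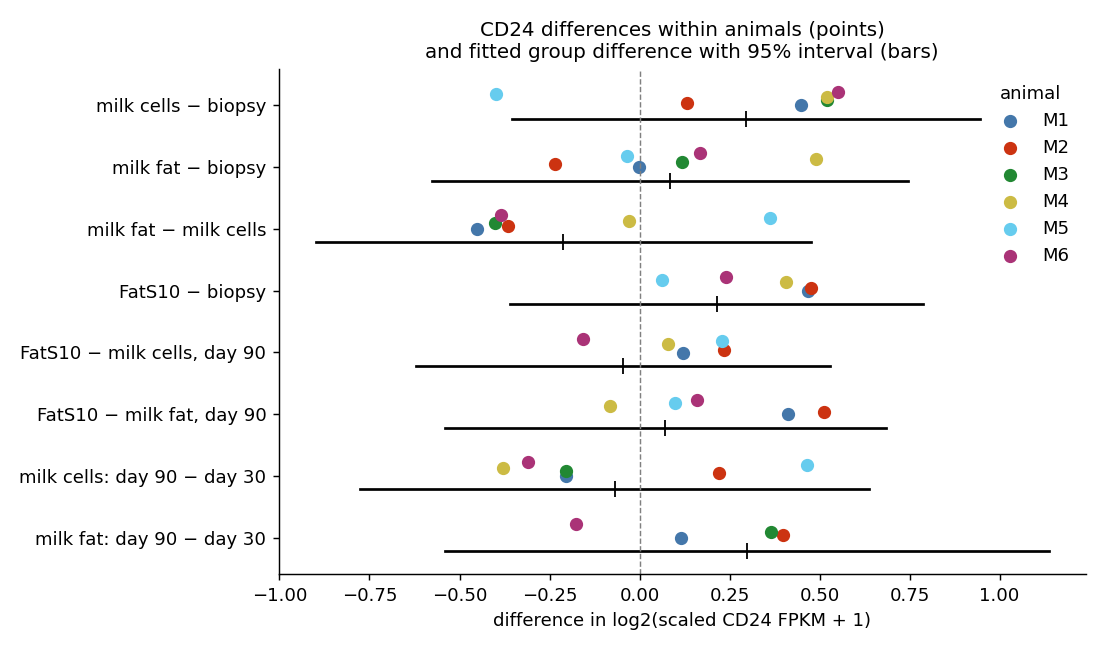
Differences in log2(scaled CD24 FPKM + 1) (horizontal axis) for 8 comparisons; points are single animals with both samples, and each black bar is the limma group difference (tick) with its 95% interval. All 8 intervals include 0; CD24 is higher in FatS10 than in the biopsy in 5 of 5 animals and higher in milk cells than in the biopsy in 5 of 6.

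In the main limma fits, without a block, CD24 was thus called in 0 of 9 comparisons. At an unadjusted limma p under 0.05 it was again 0 of 9. With a change of more than 3-fold required as well, the call covered 6.07% of transcripts between biopsies and milk cells, 9.26% between biopsies and milk fat, 1.64% between milk cells and milk fat, and 7.07% between biopsies and FatS10. It covered 0.415% between FatS10 and milk fat, 0.208% between FatS10 and milk cells, 0.0941% between the days of milk cells and 0% between those of milk fat and of biopsies, and CD24 was never among them. The 95% intervals between types, from these fits without a block, reach 0.95 on the log2 scale and include the spread between animals. With animal as a block the standard error was smaller. It fell from 0.30 to 0.17 between biopsies and milk cells and from 0.31 to 0.14 between biopsies and milk fat. Between milk cells and milk fat it fell from 0.32 to 0.16. In simulated data with 6 samples against 6, a 2-fold change was called in 67% of 100 changed transcripts and a 4-fold change in 90%. Few of the 13355 simulated transcripts were changed, both groups had the spread of day 90 milk cells, and animals were not paired. These percentages therefore do not measure the power for CD24 in the real comparisons.

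CD24 levels differed most between animals. M2 was the lowest animal in 6 of 6 sets of matched samples (the biopsies, milk cells of each day, milk fat of each day and FatS10), both as deposited and after scaling. M3 was the highest in 5 of the 5 sets it belongs to after scaling, and in 4 of 5 as deposited, where the biopsy of M5 was higher. Averaged over biopsy, milk cells and milk fat, the scaled level of M2 was 2446 FPKM and that of M3 was 7580 FPKM (geometric means). The 4 other animals lay between 4709 (M6) and 5752 FPKM (M5). M2 was at 0.514 times the mean of the 6 animals and M3 at 1.59 times. As deposited M2 was again the lowest, at 0.583 times the mean, but M5 was the highest at 1.28 times and M3 was at 1.26 times.

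**Figure D3:**
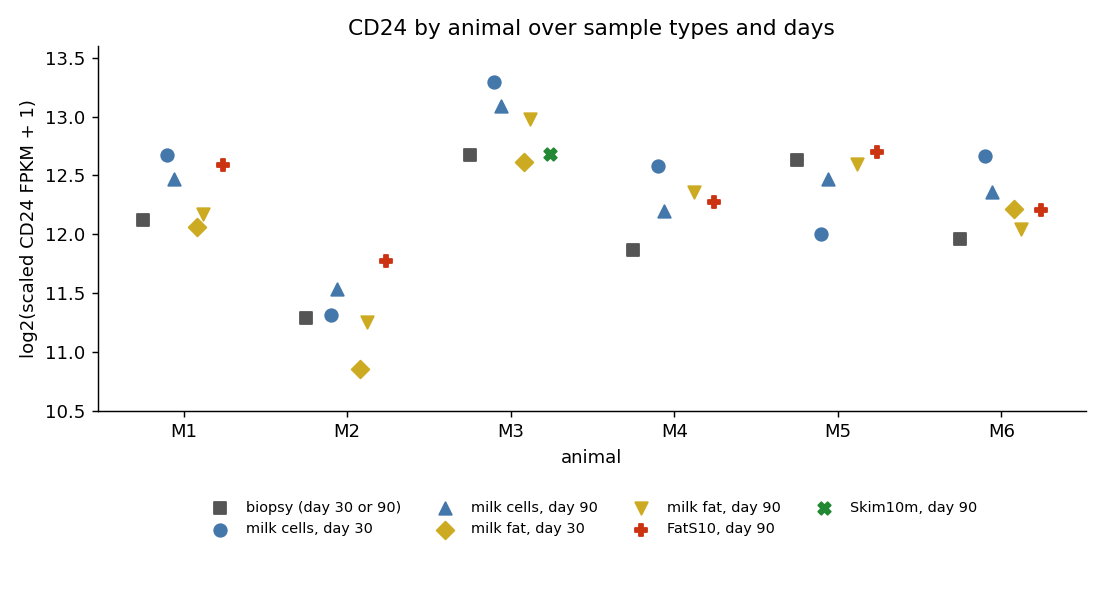
CD24 as log2(scaled FPKM + 1) (vertical axis) by animal (horizontal axis); each symbol is 1 sample, with its shape and colour giving sample type and day. The samples of M2 lie at the bottom in every sample type and those of M3 at the top in biopsies, milk cells and milk fat, while the types overlap within most animals.

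The variation of the log2 level over 6 animals and 3 types (biopsy, milk cells and milk fat, days averaged) was divided into its parts. For CD24, 84.8% lay between animals, 5.44% between types and 9.76% in neither. This division and its test were chosen after the values were seen. The limma F test of a difference between animals, with type as a term, called CD24 (adjusted p = 0.00632), where 7.11% of the 13826 transcripts tested were called. Its share between animals was reached or exceeded by 100 transcripts (0.723%), and the median over all transcripts was 20.1%. In FPKM as deposited the share was 62.8% (limma adjusted p = 0.0321), where 4.91% of transcripts were called. That share was reached or exceeded by 735 transcripts (5.32%), and 24.3% of the variation lay between types.

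M2 carried much of this. Without M2 the share between animals was 59.0%, which 1020 transcripts (7.61%) reached or exceeded, and CD24 was not called (limma adjusted p = 0.232), while it stayed called when any 1 of the other 5 animals was left out (adjusted p from 0.00716 to 0.0403, the highest without M3). The animals were also spread over sequencing pools. In milk cells, the scaled log2 levels of M1 and M2, both in pool 2, were 12.57 and 11.42, those of M3 and M4 in pool 3 were 13.20 and 12.39, while M5 had 12.24 and M6 had 12.51 in pool 4. In milk fat the same pairs had 12.12 and 11.06, 12.79 and 12.36, and 12.60 and 12.13. Pool and animal were not tested apart, since each animal's milk was in 1 pool. Relative depth in the samples of M2 was 0.740 to 1.09, and its scaling factors ran from 0.819 in the biopsy to 1.51. Their part in the result was not tested.

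Animals kept their place across sample types only in part. Over the 6 animals, the scaled log2 level in biopsies correlated with that in milk fat at Pearson r = 0.92 (exact permutation p = 0.0278, 0.0833 adjusted over 3 pairs of types) and Spearman rho = 0.77 (exact p = 0.103, adjusted p = 0.263). Biopsies and milk cells gave r = 0.77 (exact permutation p = 0.103, adjusted p = 0.103) and rho = 0.66 (exact p = 0.175, adjusted p = 0.263), and milk cells and milk fat gave r = 0.86 (exact p = 0.0889, adjusted p = 0.103) and rho = 0.43 (exact p = 0.419, adjusted p = 0.419). None of the 3 passed 0.05 after adjustment. Without M2 and M3, the animals farthest from the median, r was 0.71 for biopsies with milk fat but -0.67 for biopsies with milk cells and -0.99 for milk cells with milk fat (n = 4 each). Leaving out the animals farthest from the median narrows the range, so a fall in r can follow from the choice, and no conclusion is drawn. As deposited, r without M1 and M2 was 0.80 for biopsies with milk fat and -0.29 for biopsies with milk cells. Milk cells with milk fat gave -0.40 as deposited without M2 and M3 (n = 4 each).

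Among abundant transcripts CD24 stood at an end. Of the 41 transcripts with a mean of at least 1000 FPKM, 0 of the other 40 had a higher share of variation between animals in the scaled values, where their median was 17.4%. Their median share between types was 59.9%, and 2 of the 40 had a lower one than CD24. As deposited, 1 of the 40 had a higher share between animals. The SD of CD24 over animals, 0.52 in biopsies, 0.58 in milk cells and 0.61 in milk fat on the log2 scale, was itself not extreme, since 19, 9 and 16 of the 40 had a higher one.

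**Figure D4:**
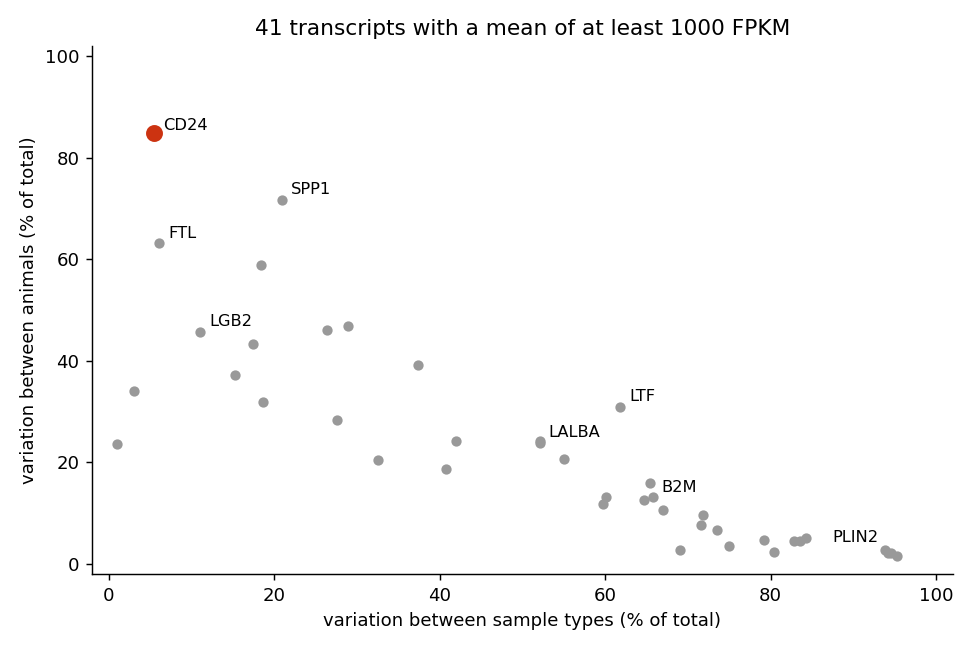
Each point is 1 of the 41 transcripts with a mean of at least 1000 FPKM, by its share of log2 variation between sample types (horizontal axis, percent) and between animals (vertical axis, percent) in scaled values of 6 animals and 3 types. CD24 (red) is the highest on the vertical axis at 84.8% and near the left end at 5.44%, SPP1 is at 71.7%, and PLIN2 lies at the other end.

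Milk proteins were among the abundant transcripts that could be set beside CD24. Gene names could be tied to 22 transcripts, and the 8 genes listed as milk secretory products were among them (CSN2 through its higher transcript). Between biopsies and milk cells, 1 of the 8 was called higher in milk cells, 1 was called lower and 6 were not called, where 43% of all transcripts tested were called, with a median difference of -0.09 against 0.02 over all transcripts. LALBA, the regulatory subunit of lactose synthase, was higher (0.88, standard error 0.32, limma adjusted p = 0.0385), and LTF, the iron-binding lactoferrin, was lower (-1.40, standard error 0.28, adjusted p = 0.00153).

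In milk fat against biopsies, 2 of the 8 were called higher, 3 were called lower and 3 were not called, beside 55% called over all transcripts, with a median of 0.10 against 0.07 over all transcripts. LALBA and GLYCAM1, a mucin-like milk glycoprotein, rose. The caseins CSN2 (through its higher transcript) and CSN3 and LTF were the 3 that were lower. The second CSN2 transcript differed in the other direction, by 0.57 (standard error 0.34, limma adjusted p = 0.177), and was not called. The loci of both CSN2 transcripts overlap, so reads may be divided between them. From milk cells to milk fat 1 of the 8 was called, where 43.7% of all transcripts were. It was FABP3, a fatty acid binding protein, which was higher in milk fat (0.84, standard error 0.20, limma adjusted p = 0.00484). The median of the list was -0.02 against 0.05 over all transcripts.

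PLIN2, another protein found with milk fat globules, gave the widest contrast with CD24. The 4 transcripts matched to PLIN2 were called higher in milk fat than in biopsies, by log2 differences of 4.84 to 5.81, where CD24 differed by 0.08. The second of them lies on chromosome 14 and the others on chromosome 15, and whether they share reads was not tested. B2M, the light chain of MHC class I, was the next named transcript below CD24 in biopsies and was lower in milk fat than in biopsies (-1.22, standard error 0.23, limma adjusted p = 0.000620) and than in milk cells (-1.08, standard error 0.24, adjusted p = 0.00349). CD24 was 1 of 8 named transcripts that were called in none of the 3 comparisons of biopsy, milk cells and milk fat. The others were MT1E, TPT1, LGB2, the second CSN2 transcript, SPP1, FTL and LYZ. Over all transcripts tested, 43%, 55% and 43.7% were called in biopsies against milk cells, biopsies against milk fat and milk cells against milk fat. The share of all transcripts called in none of the 3 was not computed, so whether 8 named transcripts is usual is not known. The highest of the 3 type means of CD24 was 1.44 times the lowest, and 3 of the 21 other named transcripts had a smaller ratio.

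Of the 22 named transcripts, 3 differed between animals by limma, where 7.11% of all transcripts tested did. These were CD24, SPP1, which encodes the secreted phosphoprotein osteopontin (71.7% of the variation between animals, adjusted p = 0.00306), and LTF (31.0%, adjusted p = 0.0303). SPP1 was lowest in M5 in all of the sets of M5. M2 was the lowest in every set for CD24 and for the second transcript of CSN2 among the named ones, and as deposited for CD24 alone. Over all 13708 transcripts with a mean of at least 1 FPKM, 77 (0.562%) had M2 lowest in every set after scaling and 10 (0.0730%) as deposited.

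The transcripts most like CD24 were much less abundant. Over the 34 samples, the 5 highest Pearson correlations with CD24 among 4033 transcripts of at least 10 FPKM ran from 0.78 to 0.83, and 0 of the 5 were among the named transcripts. After the mean of each sample type was taken off, the highest 5 ran from 0.84 to 0.89, and 2 transcripts were in both lists. These were ENSMMUT00000019852, at 0.83 and 0.89 with a mean of 95.3 FPKM, and ENSMMUT00000008474, at 0.81 and 0.89 with a mean of 153.6 FPKM. The points share animals, so these values are descriptions. The second transcript of CSN2 had 0.65 by the first measure, LGB2 0.65 and LALBA 0.59. FABP3 had 0.0022 and the first transcript of PLIN2 had -0.06.

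Markers of other cells that carry CD24 could not be set beside it. Of the 95 symbols on 11 lists (partners of CD24, assembly of the anchor, other anchored proteins, markers of luminal, basal, B, neutrophil, other white blood and stromal cells, the milk fat globule membrane and milk products), 9 could be tied to a transcript. For 9 of the lists this was 0 members, the luminal list among them. The luminal origin of the CD24 signal was therefore not checked against other luminal markers, and the part of white blood cells in it was not tested.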

How the data were processed

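The authors made libraries from poly(A) RNA, sequenced them in 3 runs per sample, trimmed the reads and mapped them with TopHat to rheMac2. Cufflinks then gave the FPKM of every Ensembl transcript, and the authors deposited these FPKM. Another 6 columns match no described sample and were not used. Runs were averaged to 34 samples, and 0 pairs of columns were identical.

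CD24 and the gene lists were chosen with earlier results of these data known. The rule for transcripts to describe took CD24, any that overlap it, list members that could be named, and the 5 most like CD24 by Pearson correlation, of which at most 2 without a symbol are given. The 22 called named transcripts are all those with a symbol, and those outside the rule (B2M, FTL, FTH1, TPT1, MT1E, SERF2, ATP5J2 and LGB2) were added after their values were seen. Names come from the study's lists of abundant transcripts by the closest mean level. For CD24 the match was within 0.122% and the next candidate was 351 times farther away. All 22 matches were within 1.52%.

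Samples were grouped by the tissue label. Each sample was divided by its median-of-ratios factor over 21792 transcripts above 0 in every sample. Limma 3.58.1 (R 4.3.3, trend in the prior variance) was fitted to log2(scaled FPKM + 1) for all transcripts whose mean FPKM was at least 1, without a block as in the study, and with Benjamini-Hochberg adjustment. The study tested read counts, which were not used here. The fits were tested on simulated data of the simplified kind described above: with 3 samples against 3, 16% of 2-fold and 64% of 4-fold changes were called. Samples are paired by the animal named in their labels. Deviations from type means correlated within animals at 0.0798 to 0.504 over 18 pairs of samples, and 16 of the 18 matched their own animal best. Relative depth came from the most frequent ratio between low FPKM in 1340 non-overlapping transcripts, and simulated depths were recovered within 0.0904%. No counting interval was computed, since FPKM carry no counts. The other steps used scipy 1.17.1, numpy 2.4.6 and pandas 2.3.3 in Python 3.11.15, with matplotlib 3.10.9 for plots. Alternatives covered scaling, pseudocount, filter, trend, block, unit of replication, days, runs and each animal left out.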

Additional observations from a re-analysis of the deposited data

How the results depend on the processing

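CD24 was called in 0 of 158 alternatives over the 9 comparisons (lowest limma adjusted p 0.0545), and its direction reversed in 11. Scaling to the sum outside the 20 highest transcripts gave -0.36 from biopsies to milk fat and 0.16 from day 30 to day 90 in milk cells. The 75th percentile gave -0.016 for FatS10 against milk fat and 0.010 against milk cells, where FPKM as deposited gave 0.026, the Skim10m sample added to FatS10 gave 0.016, and animal as a replicate block gave 0.10. With each animal left out in turn, the differences ranged from -0.010 (without M1) to 0.22 for FatS10 against milk fat, from -0.12 to 0.10 (without M3) for FatS10 against milk cells, and from -0.46 to 0.21 (without M2; 0.10 without M3) between biopsy days; the cause was not tested. For the difference between animals, leaving out each animal gave shares from 59.0% to 87.7%.

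Pairing by animal changed no call of CD24. It raised the transcripts called from 3116 to 5144 for FatS10 against milk fat, from 96 to 3476 for FatS10 against milk cells and from 711 to 3460 between days of milk cells. Without the filter on low FPKM the milk products called fell from 2 to 1 (biopsies and milk cells), from 5 to 1 (biopsies and milk fat) and from 1 to 0 (milk cells and milk fat; 3 with the replicate block). By Spearman correlation, 2 of the 5 transcripts most like CD24 after type means were taken off were the same. Without the day 30 milk fat sample of M6, chosen after the data were seen, the milk fat differences were 0.07, -0.23 and 0.39, each uncalled. The number of animals limits every value. The study gives mapped reads only in total and as an average per sample, so the reads behind each value are not known.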
